A study of Homo sapiens with 24 samples.

Results

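Rhabdomyosarcoma cells kept for 5 days with dasatinib as the only drug were compared with cells kept in the solvent DMSO. The comparison takes in every gene with a Wald statistic in the authors' deposited table of dasatinib against DMSO, which is 29639 of 29639 genes of the series. The series has 24 cultures in 8 groups of 3: Rh30, an alveolar rhabdomyosarcoma line, and RD, an embryonal one, each with DMSO, dasatinib, SGI-110 at 0.5 µM, or both drugs. The dasatinib and DMSO groups account for 12 of the 24 cultures, and both received DMSO as solvent. The wording of the labels leaves it open whether the dose of 0.5 µM also holds for dasatinib, so no dasatinib dose is given. The combination and SGI-110 groups, which share SGI-110 at 0.5 µM, served as a repeat of the dasatinib contrast in cultures that the comparison itself did not use. Each line is a long-established tumour line with no normal muscle beside it, and the labels describe the replicates as biological, so the p-values measure the spread between these cultures.

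Dasatinib is a small molecule that occupies the ATP site of the SRC family and ABL kinases and of several receptor kinases, among them the Eph, DDR, KIT and PDGF receptors. SRC family kinases sit at integrin contacts, where they phosphorylate adaptor proteins and pass signals on to the cytoskeleton and to growth pathways. Rhabdomyosarcoma cells express the regulators of skeletal muscle but stop short of finished muscle fibres. Guadecitabine, the drug coded SGI-110, releases decitabine, which blocks DNA methyltransferases. The comparison addresses what dasatinib alone changes in the messenger RNA of such cells.

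Values are log2 changes, and ± stands before the deposited standard error. Each was computed as the Wald statistic times its standard error in the authors' deposited table. A gene is called higher or lower when its adjusted p in DESeq2's Wald test, as the authors computed it, is under 0.05. The largest standard error was 6.01, which is the value for groups of 3 libraries, against 4.25 for groups of 6. Each change is therefore read as that of a single unnamed line, while the mean normalised count of a gene is over all 24 libraries of both lines. No values per library were used here, so depth and the spread of single cultures are unknown. A group was taken as measured for a gene when its own standard error was under 1.18 log2, the value at 0.5 counts in each of 3 libraries, and no change is given of or against a group that was not. Members of a list named beyond the 4 with the smallest p were chosen after their values were seen.

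Dasatinib changed the messenger RNA of many genes by small amounts. Of the 20445 genes with an adjusted p, 3636 (17.8%) were higher and 2696 (13.2%) lower in the authors' deposited table, and 8087 genes had an unadjusted p under 0.05. The median change was 0.36 log2 among the higher genes measured in both groups and -0.51 among the lower ones, from the authors' deposited table. Changes past 1 log2 were fewer, with 397 genes higher and 571 lower among the called genes measured in both groups, so large falls outnumbered large rises. Another 26 higher genes had no measurable DMSO level and 27 lower genes no measurable level with dasatinib. When all changes were centred on their median of 0.0504 over the 11759 genes at a mean normalised count of 100 or more, the split turned to 2889 higher and 3262 lower. Over all genes with an adjusted p the median was -0.02. Precision rested on level: 44.9% of genes with a mean count of at least 100 were called, with a median standard error of 0.0843 log2, against 124 of the 12383 genes under 10, where it was 1.72. Of the 11759 genes at a mean count of at least 100, 3225 were higher and 2051 lower in the authors' deposited table. Shares over all genes include weakly expressed ones, so lists of well expressed genes compare better with these counts. Of the protein-coding genes with an adjusted p, 22.9% were higher and 14.3% lower in the authors' deposited table. In the combination against SGI-110 14.2% of all genes tested were higher and 17% lower, the shares for list counts in that contrast.

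**Figure D1:**
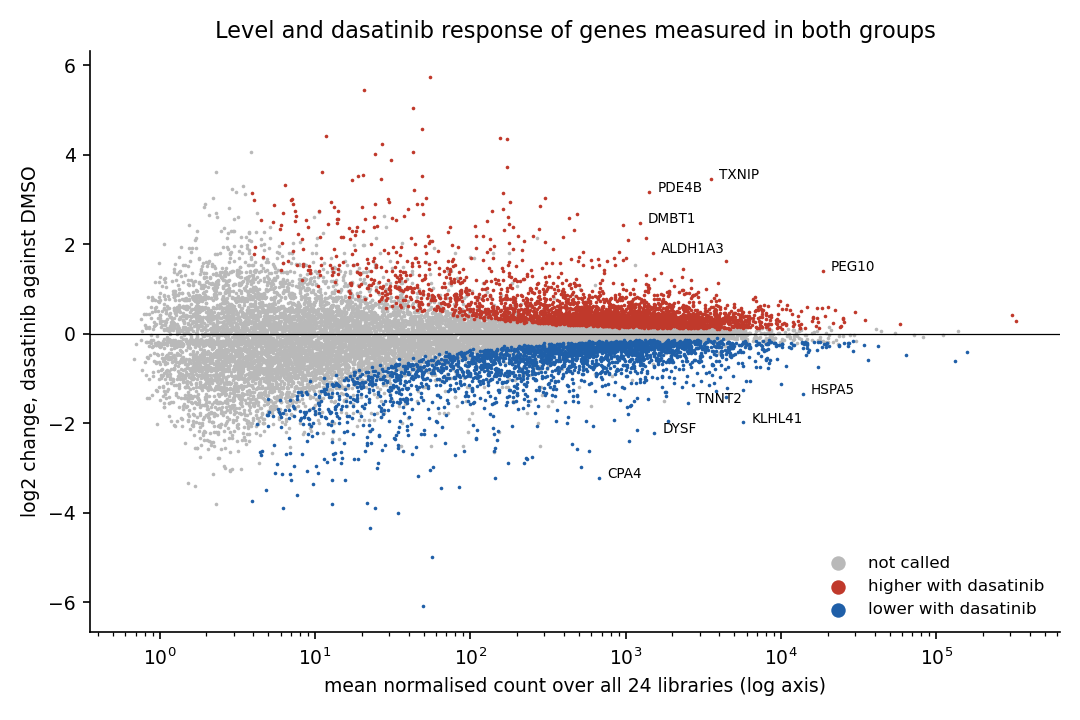
Mean normalised count over all 24 libraries (x axis, log scale) against the log2 change with dasatinib (y axis), 1 point for each gene measured in both groups; red genes were called higher, blue lower, grey not called. The named genes are the 5 with the smallest p in each direction, and calls fill in towards small changes as the level rises.

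The skeletal muscle identity of the cells was visible, and part of it fell. All 12 skeletal muscle markers had an adjusted p and were measured in both groups. With dasatinib 8 were lower and none higher, against 13.2% and 17.8% of all genes, in the authors' deposited table. MYOD1, the master regulator of the muscle lineage, had a mean normalised count of 5180 and stood at 0.17 ± 0.12, which was not called, in the authors' deposited table. MYOG, the regulator of terminal differentiation, fell by 0.41 ± 0.07 on the log2 scale in the authors' deposited table. Genes that mark other cell types were in part under the limit of measurement. Neither group was measured for 9 of 15 immune markers, 7 of 11 epithelial markers, 10 of 14 neural markers, 6 of 12 adipocyte and bone markers, 6 of 13 fibroblast markers and 3 of 11 endothelial markers found, from the authors' deposited table. Of the endothelial markers 2 of 9 were higher and 1 lower, and those measured in both groups had a median of -0.57, from the authors' deposited table. PECAM1, at a mean normalised count of 674, stood at 1.55 ± 0.08 and TIE1 at -0.74 ± 0.19 in the authors' deposited table. FLT1, the other higher marker, had no measured DMSO level. The part of these other cell type markers in the results was not tested.

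The clearest rises and falls named both signalling and muscle genes. TXNIP, an arrestin-like protein that binds thioredoxin and restrains glucose uptake (GRCh38, chromosome 1, 145992435 to 145996600), was 11.1-fold higher (3.47 ± 0.10, adjusted p = 3.92e-287), the smallest p among rises in the authors' deposited table. PDE4B, a phosphodiesterase that breaks down cyclic AMP (chromosome 1, 65792514 to 66374579), stood at 3.17 ± 0.09 in the authors' deposited table. AFAP1L2, an adaptor that binds SRC (chromosome 10, 114294824 to 114404756), had the largest rise but 1 at a mean normalised count of at least 100, at 4.35 ± 0.28 in the authors' deposited table. CAPN6, a calpain family member, stood at 3.16 ± 0.37, AGXT, a glyoxylate aminotransferase, at 2.95 ± 0.16, KANK4 at 2.86 ± 0.24 and the ADP-ribosyltransferase family gene ART3 at 2.74 ± 0.26 in the authors' deposited table. The transcript LA16c-312E8.4, which has no role given here, stood at 4.38 ± 0.22 in the authors' deposited table. Rises with very small p were also seen for DMBT1, a scavenger receptor protein (2.47 ± 0.09), ALDH1A3, which makes retinoic acid (1.81 ± 0.06), and the imprinted gene PEG10 (1.41 ± 0.05) in the authors' deposited table.

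Of the 8 largest falls at a mean normalised count of at least 100, 3 were genes of muscle fibres. These were UNC45B, the chaperone that folds muscle myosin (-2.98 ± 0.22), CACNA1S, the voltage sensor of muscle contraction (-2.89 ± 0.31), and TMEM8C, also known as myomaker, which lets myoblasts fuse (-2.47 ± 0.22), in the authors' deposited table. The other falls were those of GPNMB, a glycoprotein of lysosomes (-3.21 ± 0.28), the secreted carboxypeptidase CPA4 (-3.21 ± 0.12, 9.26-fold lower), the phospholipase gene PLA2G4C (-2.61 ± 0.25), the desmosome gene PKP1 (-2.56 ± 0.15) and CNIH3, a partner of glutamate receptors (-2.54 ± 0.18), in the authors' deposited table. By p, DYSF, which reseals the muscle membrane (-2.22 ± 0.08, adjusted p = 2.5e-186), and CPA4 led the falls in the authors' deposited table. HSPA5 (-1.34 ± 0.05), the sarcomere-associated kelch protein gene KLHL41 (-1.98 ± 0.09) and the troponin T gene TNNT2 (-1.55 ± 0.07) followed in the authors' deposited table. On SGI-110, that is in the combination against SGI-110, all 8 of these falls were called lower, from -1.20 ± 0.16 (PLA2G4C) to -2.63 ± 0.07 (CPA4), in the authors' deposited table. They were smaller there by a called difference for 6 of the 8, for example by 1.63 for GPNMB and 1.28 for PKP1, and not for UNC45B and TMEM8C. Of the 8 largest rises 6 were called higher on SGI-110, while TXNIP (-0.18 ± 0.09) and ART3 (-0.34 ± 0.19) were not called there, in the authors' deposited table. The rise was smaller there by a called difference for 7 of the 8, with CAPN6 as the exception (3.28 ± 0.26 on SGI-110), from the authors' deposited table. Rises and falls alike were picked for their size with dasatinib alone, a value that the difference contains. Part of the shift to smaller values on SGI-110 is therefore set by that choice, and how large a part was not tested.

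The kinases that dasatinib binds are the direct targets of the drug, and the called changes of their own transcripts lay between -0.94 and 0.61. Among SRC family and ABL genes with an adjusted p, 3 of 10 rose and 1 fell, against 17.8% and 13.2% of all genes, in the authors' deposited table. FYN rose (0.61 ± 0.07, adjusted p = 8.15e-15), as did YES1 (0.39 ± 0.07) and ABL1 (0.25 ± 0.06), and ABL2 fell (-0.43 ± 0.06) in the authors' deposited table. SRC itself stood at 0.07 ± 0.08, LYN at 0.22 ± 0.11, FRK at 0.20 ± 0.13 and CSK, the kinase that holds SRC inactive, at 0.10 ± 0.08, none of them called, in the authors' deposited table. BLK, LCK and FGR had a group that was not measured in the authors' deposited table. Of the receptor kinases 6 of 15 rose and 2 fell in the authors' deposited table. The ephrin receptor genes EPHA7 (0.59 ± 0.08), EPHA4 (0.49 ± 0.18), EPHA2 (0.38 ± 0.11), EPHB4 (0.32 ± 0.08) and EPHB3 (0.31 ± 0.10) rose, with the collagen receptor gene DDR1 (0.29 ± 0.06), in the authors' deposited table. PDGFRB, a receptor for platelet-derived growth factor (-0.94 ± 0.15), and EPHB2 (-0.40 ± 0.11) fell in the authors' deposited table. The values of DDR2 (-0.08 ± 0.07), EPHA5 (0.39 ± 0.27), EPHB1 (-1.04 ± 0.50) and CSF1R (-1.49 ± 0.80) were not called, and KIT, PDGFRA, EPHA3 and EPHB6 were measured in neither group, in the authors' deposited table. On SGI-110 the 3 kinase genes that fell were lower too, ABL2 at -0.80 ± 0.06, PDGFRB at -1.44 ± 0.13 and EPHB2 at -0.90 ± 0.10 in the authors' deposited table. EPHA2 went the opposite way there, at -0.30 ± 0.07 (adjusted p of the difference = 4.28e-06), from the authors' deposited table.

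**Figure D2:**
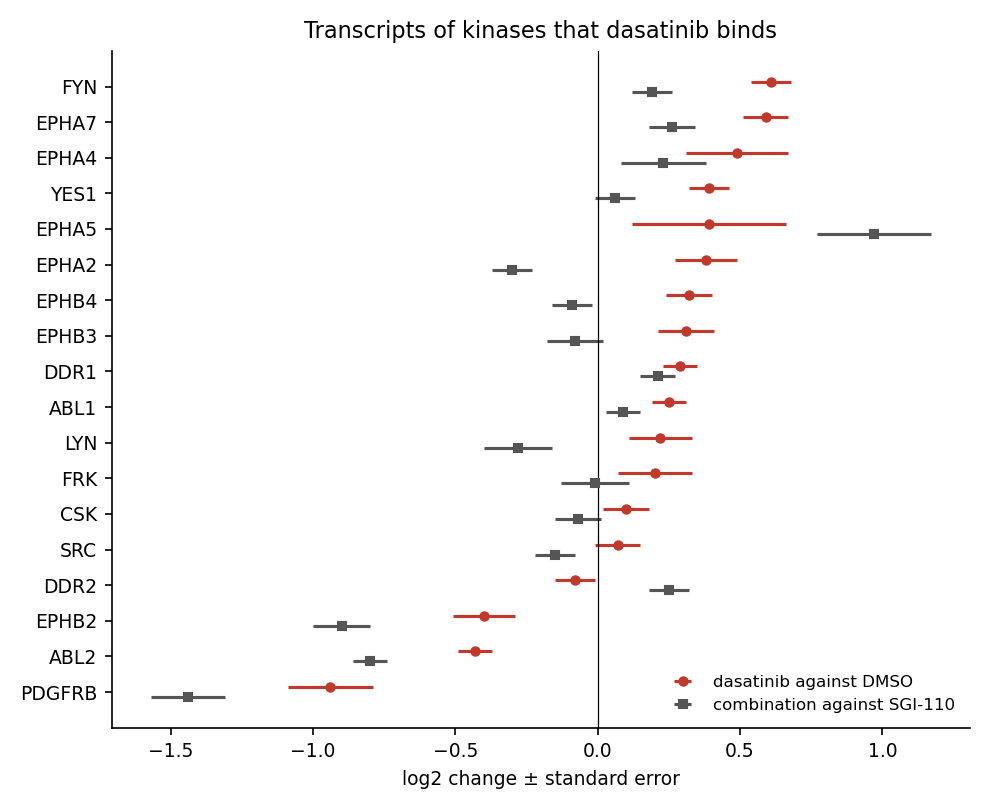
Log2 change (x axis) of the 18 dasatinib-bound kinase genes measured in both groups with a standard error under 0.5; red circles are dasatinib against DMSO and grey squares the combination against SGI-110, with bars of 1 standard error. FYN at 0.61 and PDGFRB at -0.94 mark the ends of the dasatinib values.

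Genes of adhesion and tension pathways moved in both directions, where 17.8% of all genes were higher and 13.2% lower. Among the 11759 genes with a mean count of at least 100 the counts were 3225 and 2051, so part of any excess can come with level. Of the SRC substrates and focal adhesion adaptor genes 9 of 24 rose and 8 fell in the authors' deposited table. PARVB, which links integrins to actin, rose by 2.60 ± 0.32, while PXN, the scaffold paxillin (-0.38 ± 0.05), and the tensin genes TNS1 (-0.67 ± 0.05) and TNS3 (-0.43 ± 0.05) fell in the authors' deposited table. Integrin genes had 4 of 17 members higher and 3 lower, near those shares, with ITGB8 at 0.79 ± 0.09, ITGB3 at 0.68 ± 0.10, ITGA4 at -0.94 ± 0.08 and the laminin receptor subunit gene ITGA3 at -1.52 ± 0.12 in the authors' deposited table. Genes driven by SRF and actin dynamics had 6 of 20 higher and 4 lower, with LIMA1 at 0.93 ± 0.07, ACTB at 0.32 ± 0.06, TPM1 at -0.60 ± 0.06 and FILIP1L at -0.67 ± 0.11 in the authors' deposited table. The targets of YAP and TAZ, coactivators that respond to tension, had 5 of 26 higher and 6 lower, with ANKRD1 at -1.19 ± 0.13 and AXL at -0.73 ± 0.09 in the authors' deposited table, so the counts with dasatinib alone say little about these members. On SGI-110 18 of these YAP and TAZ targets were lower and none higher, and 12 had a dasatinib response called more negative there, from the authors' deposited table. Of all genes tested on SGI-110, 17% were lower and 14.2% higher. SGI-110 against DMSO had a median of 0.79 over the measured targets, so the starting levels were unlike. CTGF stood at 0.88 ± 0.24 with dasatinib alone and -0.82 ± 0.09 on SGI-110 (adjusted p of the difference = 1.15e-09), and CYR61 at 0.01 ± 0.07 and -1.52 ± 0.06 (2e-60), from the authors' deposited table.

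Matrix genes had equal counts in both directions. In the collagen and matrix list 10 of 34 genes rose and 10 fell, against 17.8% and 13.2% of all genes, in the authors' deposited table. The basement membrane collagen gene COL4A1 (0.66 ± 0.06), the fibrillar collagen gene COL3A1 (0.48 ± 0.07), the fibronectin gene FN1 (0.54 ± 0.07) and the laminin gene LAMA4 (2.44 ± 0.39) rose in the authors' deposited table. Tenascin C, encoded by TNC (-1.11 ± 0.06), COL5A1 (-0.65 ± 0.05) and COL15A1 (-0.60 ± 0.07) fell in the authors' deposited table. Among metalloproteases and their inhibitors 2 of 17 rose and 6 fell, with the inhibitor gene TIMP3 at -1.13 ± 0.07 and the sheddase gene ADAM17 at -0.63 ± 0.06 in the authors' deposited table. Among TGF-beta targets 7 of 16 were higher and 5 lower, and the inhibitory SMAD genes of that pathway diverged, with SMAD6 at 1.20 ± 0.14 and SMAD7 at -1.39 ± 0.19 in the authors' deposited table.

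Contractile genes fell broadly. Of 35 contractile and sarcomere genes found, 32 had an adjusted p, 23 fell and 1 rose, and the members measured with and without the drug had a median of -0.91 log2, against -0.02 over all genes tested, from the authors' deposited table. Of all genes tested, 13.2% fell and 17.8% rose. The troponin genes, which carry the calcium switch of the thin filament, had 6 of 8 members lower in a family chosen after values were seen: TNNC1 stood at -3.18 ± 0.38, TNNT2 at -1.55 ± 0.07 and TNNI1 at -1.30 ± 0.09 in the authors' deposited table. Cardiac actin, ACTC1, which muscle precursors express, fell by 1.27 ± 0.08 on the log2 scale in the authors' deposited table. The myosin-binding protein gene MYBPH fell by 2.80 ± 0.56 and the intermediate filament gene DES by 0.26 ± 0.09 in the authors' deposited table. The member that rose was TPM3, a tropomyosin also made outside muscle (0.44), in the authors' deposited table. In the repeat on SGI-110 24 members were lower and 2 higher, with a median of -1.06, and 21 were called in the same direction in both contrasts, from the authors' deposited table. The shares of all genes tested in that repeat were 17% lower and 14.2% higher. The responses were not of equal size in every gene: XIRP1, an actin-binding protein gene, stood at -0.84 ± 0.14 alone and -3.02 ± 0.15 on SGI-110 (adjusted p of the difference = 6.5e-23), from the authors' deposited table. The embryonic myosin gene MYH3 stood at -0.54 ± 0.12 alone and 0.15 ± 0.10 on SGI-110 (0.000208), from the authors' deposited table.

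Membrane and junction genes of muscle had 11 of 24 members lower and 5 higher, against 13.2% and 17.8% of all genes, in the authors' deposited table. The delta-sarcoglycan gene SGCD (-1.31 ± 0.13) and CHRNG, the fetal subunit of the acetylcholine receptor (-0.87 ± 0.07), fell, and the calcium pump gene ATP2A1 rose (0.97 ± 0.10), in the authors' deposited table. Regulators upstream of these genes did not move as a block: 6 of 20 myogenic regulators rose and 7 fell in the authors' deposited table. The bHLH repressor gene MSC (-0.70 ± 0.11), HEY1 (-0.61 ± 0.08) and the muscle cadherin gene CDH15 (-0.50 ± 0.08) fell, and TCF4 rose (0.45 ± 0.06), in the authors' deposited table. Of the 21 contractile genes with a RefSeq window, 8 held the E-box letters CAGCTG, which read the same on both strands, in the 250 bases before the gene start, against 14% of all 35116 windows. Among the 2147 tested genes outside the list with these letters 493 were higher and 343 lower, with a median of 0.03, from the authors' deposited table. A match is a description of letters and not a bound site.

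**Figure D3:**
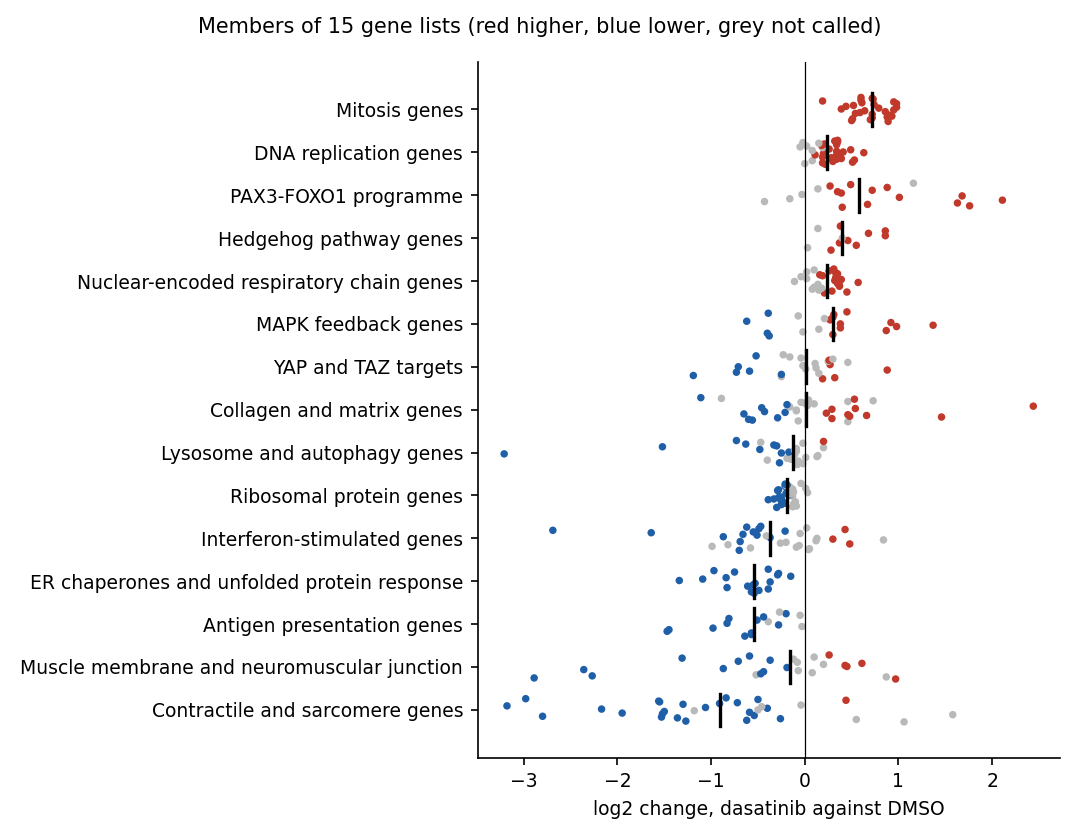
Log2 change with dasatinib against DMSO (x axis) of the members of 15 gene lists that had an adjusted p and were measured in both groups, 1 point a gene; red points were called higher, blue lower, grey not called, and the black bar is the list's median. Mitosis genes (median 0.72) lie wholly to the right of 0, and contractile genes (median -0.91) reach to -3.18.

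The programme of the PAX3-FOXO1 fusion protein, which drives many alveolar tumours, moved the other way. Of 20 such genes with an adjusted p, 13 rose and none fell, against 17.8% and 13.2% of all genes, in the authors' deposited table. The line behind the table is unnamed, however, and RD is an embryonal line. The median was 0.58 over the members measured in both groups, from the authors' deposited table. ASS1, an enzyme of arginine synthesis (1.63 ± 0.07), the BMP antagonist gene GREM1 (1.68 ± 0.16), PAX3 (0.88 ± 0.08), the nitric oxide synthase gene NOS1 (0.72 ± 0.05), the receptor kinase gene ALK (0.67 ± 0.08) and the neuronal microtubule gene DCX (2.11 ± 0.26) rose in the authors' deposited table. FGFR4 stood at -0.16 ± 0.07 and was not called in the authors' deposited table. On SGI-110 12 rose and 3 fell, from the authors' deposited table. Hedgehog pathway genes had 8 of 11 members higher and none lower, with a median of 0.40, from the authors' deposited table. The feedback genes HHIP (0.86 ± 0.07) and PTCH1 (0.68 ± 0.06), the transcription factor genes GLI2 (0.46 ± 0.07) and GLI1 (0.37 ± 0.06) and the co-receptor gene GAS1 (0.55 ± 0.06) rose in the authors' deposited table. On SGI-110 7 Hedgehog genes rose and none fell, from the authors' deposited table.

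All 28 mitosis genes were higher with dasatinib, with a median of 0.72 log2 and values from 0.19 to 0.98 in the authors' deposited table. They included the motor gene KIF20A (0.98 ± 0.05), the kinase gene PLK1 (0.95 ± 0.06, 1.93-fold, chromosome 16, 23677656 to 23690367), the cyclin gene CCNB2 (0.93 ± 0.07) and the proliferation marker gene MKI67 (0.74 ± 0.05) in the authors' deposited table. More cells in mitosis and more transcript per cell cannot be told apart in bulk RNA. On SGI-110 17 of the 28 rose with a median of 0.19, and 25 had a response called smaller there than without SGI-110, from the authors' deposited table. In the list of DNA replication genes 26 of 34 were higher and none lower, with a median of 0.24, from the authors' deposited table, and on SGI-110 26 were higher and 1 lower. MCM6 (0.63 ± 0.07) and MCM4 (0.38 ± 0.04) of the replicative helicase, the licensing factor gene CDC6 (0.51 ± 0.05) and E2F2 (0.53 ± 0.06) rose in the authors' deposited table. Among CDK inhibitors and G1 cyclins 5 of 15 rose and 2 fell, against 17.8% and 13.2% of all genes, in the authors' deposited table. CCND2 stood at 0.51 ± 0.05, CDKN2C at 0.56 ± 0.08, CCND1 at -0.38 ± 0.06 and CDKN2B at -1.32 ± 0.13 in the authors' deposited table. Among p53 targets 10 of 26 were higher and 4 lower in the authors' deposited table. Apoptosis regulators had 3 of 25 higher and 4 lower, near those shares, with BIRC5 at 0.61 ± 0.07, BCL2L1 at -0.57 ± 0.07 and BMF at -0.63 ± 0.07 in the authors' deposited table.

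Many mitotic promoters carry a cell cycle homology region, read here as the letters TTTGAA on either strand, beside the start of transcription. Of the 23 mitosis genes with a RefSeq window, 12 held these letters in the 250 bases before the gene start, against 13.3% of all windows. They are shown in capitals for 2 of the named genes, in RefSeq sequence of GRCh38.p14, 5′ to 3′ along the gene's strand.
CCNB2, chr15:59104896-59105145, plus strand: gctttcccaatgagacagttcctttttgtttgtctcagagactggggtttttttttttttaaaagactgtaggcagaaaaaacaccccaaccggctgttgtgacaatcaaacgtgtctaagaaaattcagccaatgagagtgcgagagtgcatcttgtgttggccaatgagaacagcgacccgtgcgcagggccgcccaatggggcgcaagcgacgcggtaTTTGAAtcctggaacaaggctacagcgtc
PLK1, chr16:23678639-23678888, plus strand: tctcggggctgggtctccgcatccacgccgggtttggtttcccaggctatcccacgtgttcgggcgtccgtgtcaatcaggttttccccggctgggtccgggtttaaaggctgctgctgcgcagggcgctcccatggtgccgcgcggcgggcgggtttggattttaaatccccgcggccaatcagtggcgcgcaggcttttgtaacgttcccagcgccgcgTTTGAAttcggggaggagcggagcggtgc
In both windows the match lies 29 bases before the RefSeq start. For both genes that start lies inside the GENCODE span, which begins at 59105078 for CCNB2 and at 23677656 for PLK1. Among the 1453 other tested genes with the letters 388 rose and 203 fell with a median of 0.05, where 22.9% of protein-coding genes rose and 14.3% fell, from the authors' deposited table.

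Chaperones of the endoplasmic reticulum fell as a whole list. These proteins fold secreted proteins and are induced when unfolded protein builds up. All 18 members were lower, against 13.2% of all genes, with a median of -0.54 and values from -1.34 to -0.15 in the authors' deposited table. HSPA5 encodes the most abundant Hsp70 chaperone of that compartment (chromosome 9, 125234853 to 125241330) and was 2.54-fold lower (-1.34 ± 0.05, adjusted p = 4.29e-145) in the authors' deposited table. HYOU1 (-1.09 ± 0.07), MANF (-0.84 ± 0.07), EDEM1, which sends misfolded proteins to degradation (-0.55 ± 0.05), CALR (-0.54 ± 0.06) and HSP90B1 (-0.37 ± 0.05) fell too in the authors' deposited table. Cytosolic heat shock genes had 5 of 16 members higher and 1 lower in the authors' deposited table. On SGI-110 no chaperone of the list fell, 5 rose, and for all 18 the difference between the contrasts was called, from the authors' deposited table. SGI-110 against DMSO, which shares the DMSO cultures, had a median of -0.55 over the same list, from the authors' deposited table. Whether the DMSO cultures or the presence of SGI-110 set this difference cannot be told apart.

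Promoters of such chaperones hold the endoplasmic reticulum stress element, searched for here as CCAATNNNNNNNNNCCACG on both strands in the 250 bases before the gene start. Of the 17 list members with a window, 7 held it, against 26 of 35116 windows in all (0.074%). The element is shown in capitals for 3 of them because their transcripts fell together; the sequences are RefSeq's, GRCh38.p14, 5′ to 3′ along the gene's strand.
HSPA5, chr9:125241344-125241593, minus strand: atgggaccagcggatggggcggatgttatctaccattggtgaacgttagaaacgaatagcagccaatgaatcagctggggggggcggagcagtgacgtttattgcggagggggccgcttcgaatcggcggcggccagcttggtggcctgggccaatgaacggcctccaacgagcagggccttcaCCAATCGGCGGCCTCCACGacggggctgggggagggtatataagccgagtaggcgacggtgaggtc
HSP90B1, chr12:103930160-103930409, plus strand: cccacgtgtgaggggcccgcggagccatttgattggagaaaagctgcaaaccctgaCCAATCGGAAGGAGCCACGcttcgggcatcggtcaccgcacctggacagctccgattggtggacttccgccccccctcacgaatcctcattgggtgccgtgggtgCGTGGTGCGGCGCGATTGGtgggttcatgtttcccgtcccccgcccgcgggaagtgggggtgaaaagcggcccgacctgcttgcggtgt
CALR, chr19:12938359-12938608, plus strand: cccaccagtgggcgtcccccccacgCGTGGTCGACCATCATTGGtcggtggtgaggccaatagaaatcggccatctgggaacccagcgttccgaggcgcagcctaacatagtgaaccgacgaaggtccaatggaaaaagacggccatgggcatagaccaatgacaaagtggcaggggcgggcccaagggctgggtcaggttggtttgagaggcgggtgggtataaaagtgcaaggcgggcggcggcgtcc
HSP90B1 holds 2 matches, the second of them on the other strand, as is the match of CALR. Of the 17 tested genes that hold the element, 12 were lower and none higher, with a median of -0.39, from the authors' deposited table. These 17 include the 7 list members, all of which were lower. Among the 10 of them outside the list 5 were lower and none higher, with a median of -0.31, from the authors' deposited table. For protein-coding genes with an adjusted p the shares were 14.3% lower and 22.9% higher. A match describes letters in this window and does not show binding.

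In the ATF4 stress response 9 of 24 genes rose and 5 fell, against 17.8% and 13.2% of all genes, in the authors' deposited table. The amino acid genes PSAT1 (0.76 ± 0.07) and PHGDH (0.51 ± 0.08) of serine synthesis and the cystine transporter gene SLC7A11 (1.09 ± 0.21) rose in the authors' deposited table. The stress factor genes DDIT3, also called CHOP (-1.40 ± 0.07, and -0.12 ± 0.07 on SGI-110), and NUPR1 (-3.78 ± 0.47) fell, and ATF4 itself stood at 0.02, in the authors' deposited table. Among genes of ribosomal proteins 19 of 35 were lower and none higher, with a median of -0.19 in the authors' deposited table, and on SGI-110 12 were higher and none lower, with the difference between contrasts called above for 24. RPL3 stood at -0.39 ± 0.07 and RPL10 at -0.30 ± 0.07 in the authors' deposited table. At an adjusted p under 0.01 the count was 11. MYC fell (-0.74 ± 0.06) and MYCN rose (0.35 ± 0.06), while MYC targets in ribosome building had 5 of 22 higher and 4 lower, near the shares over all genes, in the authors' deposited table. Nuclear-encoded respiratory chain genes rose in 16 of 26 members with none lower and a median of 0.23, for example NDUFA4 (0.57 ± 0.08), SDHA (0.35 ± 0.07) and ATP5B (0.45 ± 0.06), in the authors' deposited table. The transcripts made in mitochondria had 2 of 13 higher and 2 lower, near those shares too, with MT-CO1 at 0.41 ± 0.05 and MT-CO3 at -0.41 ± 0.07 in the authors' deposited table.

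Glucose-sensing genes changed in all 9 members, 3 higher and 6 lower, in the authors' deposited table. TXNIP (3.47 ± 0.10), ARRDC4 (1.69 ± 0.30) and ARRDC3 (1.09 ± 0.11), arrestin-like genes of one family, rose in the authors' deposited table. The glucose transporter gene SLC2A3 (-0.74 ± 0.08) and the hexokinase genes HKDC1 (-4.98 ± 0.43) and HK2 (-0.82 ± 0.05) fell in the authors' deposited table. MLXIPL, the carbohydrate-responsive factor known to switch on TXNIP, also fell (-2.37 ± 0.17) in the authors' deposited table. The promoter of TXNIP is shown because it holds a carbohydrate response element, a pair of short E-box elements searched for as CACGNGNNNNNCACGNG on both strands. It was found in 16 of 35116 windows (0.0456%) and in 1 of 8 members with a window.
TXNIP, chr1:145996580-145996829, minus strand: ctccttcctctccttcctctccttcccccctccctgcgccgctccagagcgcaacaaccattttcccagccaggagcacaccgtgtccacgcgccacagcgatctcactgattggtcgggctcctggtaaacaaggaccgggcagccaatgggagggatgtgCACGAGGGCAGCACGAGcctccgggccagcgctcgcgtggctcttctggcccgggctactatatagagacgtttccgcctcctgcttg
The capitals mark the match, which starts 88 bases before the gene start in RefSeq sequence of GRCh38.p14, 5′ to 3′ along the minus strand. Among the 13 other tested genes with the letters 2 were higher and none lower, from the authors' deposited table. Cholesterol synthesis genes had 8 of 26 members higher and 2 lower and fatty acid synthesis genes 5 of 16 higher and 2 lower, in the authors' deposited table. The shares over all genes were 17.8% and 13.2%, and on SGI-110 14.2% and 17%. SREBF1 stood at 0.36 ± 0.08 and FDPS at 0.28 ± 0.07 in the authors' deposited table. On SGI-110 19 cholesterol genes and 12 fatty acid genes were lower, and FDFT1 went from 0.24 ± 0.07 alone to -0.86 ± 0.07 there (adjusted p of the difference = 2.15e-26), from the authors' deposited table.

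Several lists downstream of growth factor signalling had more members higher than lower with dasatinib alone, and more lower than higher on SGI-110. So did all tested genes: 17.8% were higher and 13.2% lower with dasatinib alone, and 14.2% higher and 17% lower on SGI-110. The MAPK feedback list, only part of which damps the ERK pathway, had 11 of 20 members higher and 4 lower in the authors' deposited table. On SGI-110 7 of its members were higher and 9 lower. ETV4 (1.37 ± 0.10), ETV1 (0.98 ± 0.09), the ERK phosphatase gene DUSP6 (0.87 ± 0.07) and SPRY4 (0.45 ± 0.06) rose, and the cytokine gene LIF fell (-0.62 ± 0.12), in the authors' deposited table. Immediate early genes, the first to answer a growth stimulus, had 9 of 21 higher and 5 lower, with FOS at 1.89 ± 0.11 and EGR1 at 1.09 ± 0.11 in the authors' deposited table, and 3 higher and 11 lower on SGI-110. On SGI-110 DUSP6 rose by a like amount (0.91 ± 0.06) and FOS fell (-0.40 ± 0.11; adjusted p of the difference = 2.22e-46), from the authors' deposited table. Targets of STAT3 had 7 of 14 higher and 2 lower, with PIM1 at 0.78 ± 0.11 and STAT3 at 0.39 ± 0.05 in the authors' deposited table, and 1 higher and 8 lower on SGI-110. FOXO targets and insulin signalling genes had 10 of 22 higher and 7 lower, and FOXO1 itself rose by 0.96 ± 0.07 and the ubiquitin ligase gene of muscle wasting FBXO32 fell by 1.05 ± 0.20 in the authors' deposited table. Values are per gene, so native FOXO1 or PAX3 transcripts and any PAX3-FOXO1 fusion transcript were not told apart. Genes of cyclic AMP breakdown and protein kinase A had 9 of 14 higher and 1 lower, with PDE4B at 3.17 ± 0.09, CREM at 0.72 ± 0.09, PRKAR1A at 0.43 ± 0.06 and PDE7A at -0.40 ± 0.09 in the authors' deposited table. This list did not turn on SGI-110, where 7 were higher and none lower, from the authors' deposited table. Among Notch pathway genes 7 of 16 rose and 1 fell, with HEYL at 1.04 ± 0.06 and HES1 at 0.84 ± 0.14, and of the Wnt pathway genes 6 of 20 rose and 1 fell, with WNT5A at 0.66 ± 0.07 and AXIN2 at 0.65 ± 0.14, in the authors' deposited table. From the authors' deposited table, 9 Notch genes fell and 1 rose on SGI-110, and 8 Wnt genes fell and 3 rose.

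Antigen presentation genes, which display peptides to T cells, were lower in 12 of 18 cases and higher in none, with a median of -0.54, from the authors' deposited table. Over all genes 13.2% were lower and 17.8% higher, and on SGI-110 17% were lower and 14.2% higher. The class I genes HLA-B (-1.45 ± 0.08) and HLA-C (-0.98 ± 0.08), their light chain gene B2M (-0.64 ± 0.06), the regulator gene NLRC5 (-0.83 ± 0.08) and the immunoproteasome gene PSMB9 (-0.81 ± 0.19) fell in the authors' deposited table. Class I genes share long stretches of sequence, so reads may be split between them. On SGI-110 11 members fell and 2 rose with a median of -0.54, and 9 were called in the same direction in both contrasts, from the authors' deposited table. Interferon-stimulated genes had 13 of 37 members lower and 3 higher, with STAT2 at -0.62 ± 0.06, IRF7 at -0.87 ± 0.16 and PARP14 at -0.55 ± 0.08 in the authors' deposited table. In the repeat on SGI-110 25 were lower and none higher, and for 14 the response was called more negative, from the authors' deposited table. SGI-110 against DMSO had a median of 1.47 over the measured members of this list, so the 2 contrasts start from unlike levels. In the NF-kB list 5 of 22 genes were higher and 4 lower, near the shares over all genes, with the cytokine gene IL11 at 1.14 ± 0.08 and IL32 at -0.35 ± 0.08 in the authors' deposited table. Among lysosome and autophagy genes 10 of 28 fell and 1 rose, with GPNMB at -3.21 ± 0.28, the sialidase gene NEU1 at -1.52 ± 0.10 and the autophagy receptor gene SQSTM1 at -0.63 ± 0.07 in the authors' deposited table.

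Most cancer-testis genes and part of the germline genes, which DNA methylation silences in most tissues, were under the limit of measurement. Of the cancer-testis genes 23 of 25 found had an adjusted p, all 23 with a group under the limit of measurement, and 1 was higher, from the authors' deposited table. Of the germline and meiosis genes 4 of 19 rose and none fell, against 17.8% and 13.2% of all genes, with TDRD1 of the piRNA pathway at 1.22 ± 0.11 and TEX14 at 0.77 ± 0.12 in the authors' deposited table. On SGI-110 9 of the germline genes were lower and none higher, from the authors' deposited table. SGI-110 against DMSO had a median of 7.31 over the tested members measured in those 2 groups, so these falls start from another level. In the DNA methylation machinery 7 of 18 genes rose and none fell, with the de novo methyltransferase genes DNMT3A at 0.65 ± 0.04 and DNMT3B at 0.48 ± 0.10 and UHRF1 at 0.40 ± 0.06 in the authors' deposited table. Imprinted genes had 6 of 22 higher and 3 lower, with PEG10 at 1.41 ± 0.05 and GNAS at 0.58 ± 0.05 in the authors' deposited table.

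The combination against SGI-110 tests the same drug in cultures that share no library with dasatinib against DMSO. There 14.2% of 22743 genes were higher and 17% lower in the authors' deposited table. Of the 3636 genes higher with dasatinib alone 1410 (38.8%) were called higher there too and 418 (11.5%) lower, and the 1410 are 43.6% of the 3237 genes higher on SGI-110, from the authors' deposited table. Of the 2696 lower genes 1076 (39.9%) repeated and 256 (9.5%) were higher, and the 1076 are 27.9% of the 3860 genes lower on SGI-110, from the authors' deposited table. The difference between the contrasts was tested for all 29639 genes with a Wald test that adds both variances. The response on SGI-110 was above that of dasatinib alone for 1804 genes (6.09%) and below it for 2517 (8.49%) at an adjusted p under 0.05. Among the genes called with dasatinib alone, the difference was called for 1603 of the higher (44.1%) and 1162 of the lower (43.1%). Those genes were picked on a value that the difference contains, so both shares are in part set by that choice. Contractile genes had 7 members with the response called above and 8 below, and antigen presentation genes 5 and 2, so their like medians in both contrasts hide single members that differed. Mitosis genes had 25 below and none above, and chaperone genes 18 above and none below. The calculation takes both contrasts as parts of 1 fit.

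**Figure D4:**
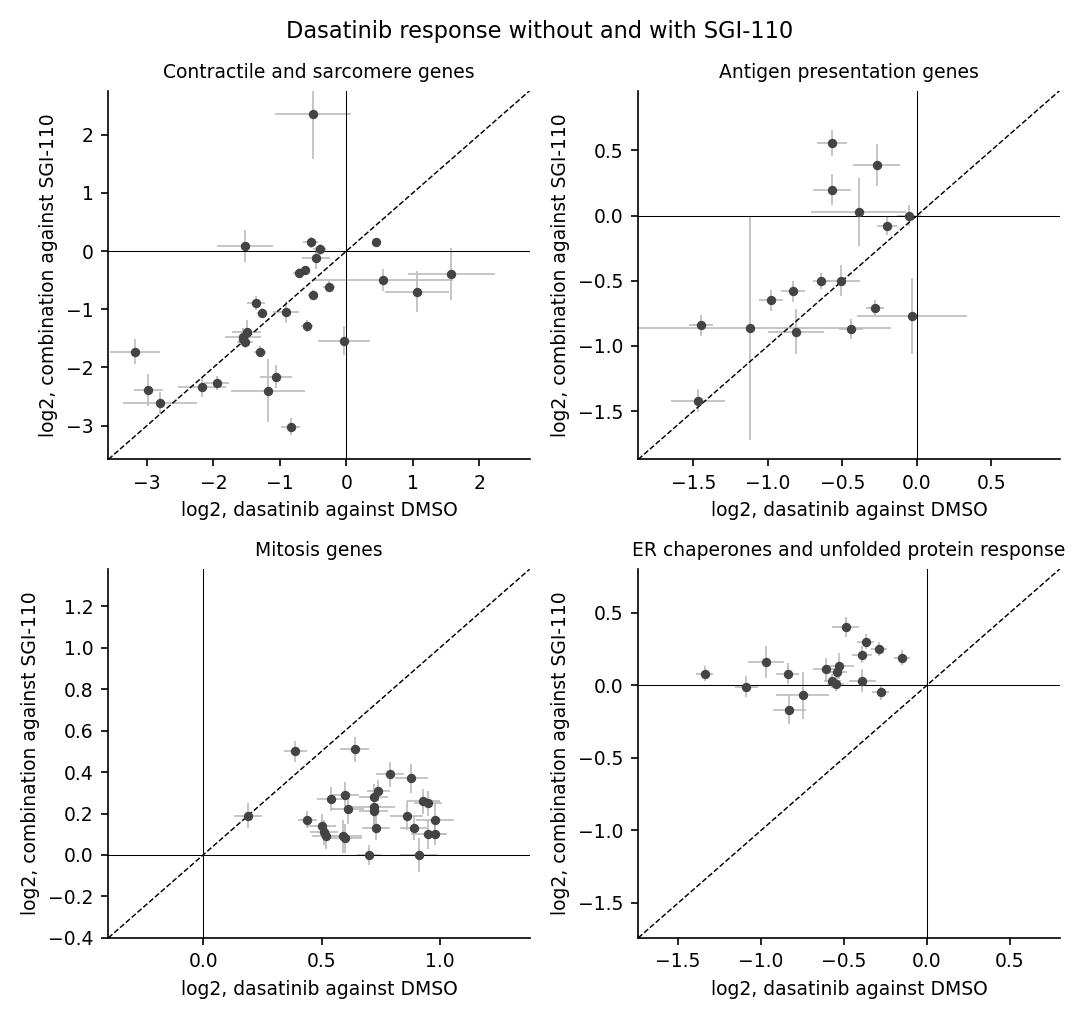
Log2 change of dasatinib against DMSO (x axis) and of the combination against SGI-110 (y axis) for members of 4 lists measured with and without dasatinib, 1 point a gene, with bars of 1 standard error and a dashed line where both are equal. Contractile genes spread along the dashed line, mitosis genes lie mostly below it, and all 18 chaperone genes lie above it.

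TXNIP shows the pattern in a single gene. It rose with dasatinib (3.47 ± 0.10) and with SGI-110 against the same DMSO cultures (3.81), and stood at -0.18 ± 0.09 in the combination against SGI-110, from the authors' deposited table. HSPA5 stood at -1.34 ± 0.05, -1.25 and 0.08 ± 0.05 in the same order, and DMBT1 at 2.47 ± 0.09, 2.41 and -0.43 ± 0.08, from the authors' deposited table. The first 2 of these values share their DMSO cultures and are not independent. COX10, an assembly factor of the respiratory chain, showed another form: it stood at -0.06 ± 0.08 with dasatinib, -0.09 with SGI-110 and 2.00 ± 0.07 in the combination against SGI-110, from the authors' deposited table.

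**Figure D5:**
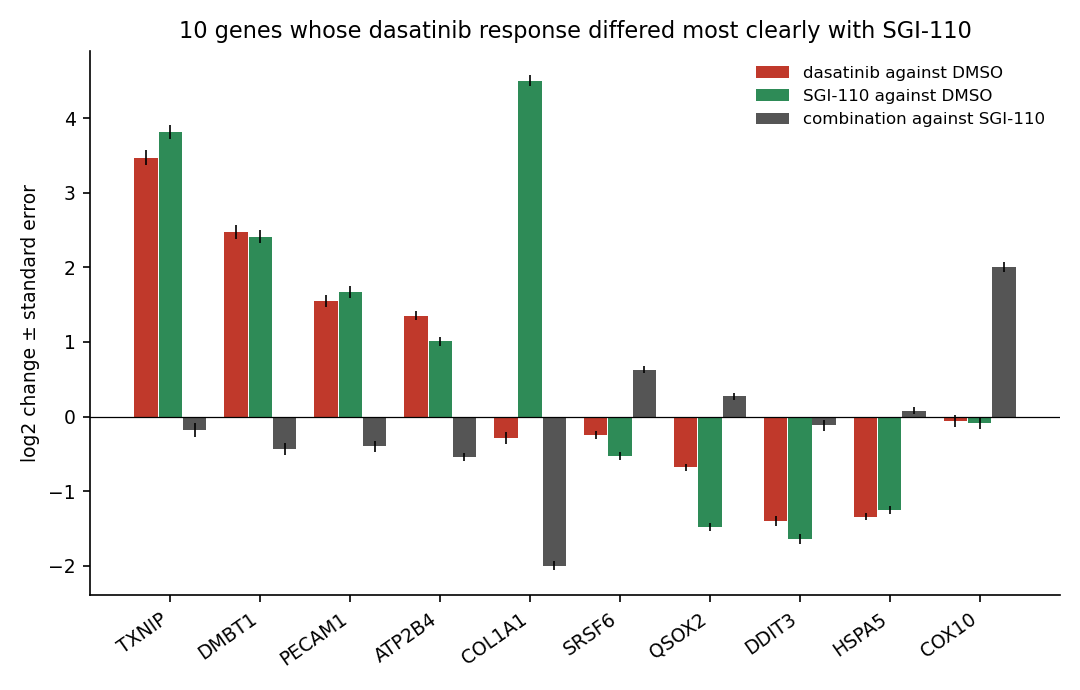
Log2 change (y axis, bars with 1 standard error) of the 10 genes with the smallest p for the difference between the dasatinib contrasts, 5 in each direction; red is dasatinib against DMSO, green SGI-110 against DMSO, grey the combination against SGI-110. For TXNIP, DMBT1, PECAM1, ATP2B4, DDIT3 and HSPA5 the red and green bars point the same way and the grey bar is smaller than both.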

How the data were processed

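Poly(A)-selected stranded libraries of 24 cultures were read as pairs of 75 bases, per the labels' protocols. Tools of the authors, per the submitters' processing notes, were HISAT2 2.1.0, Trim Galore 0.4.2, DESeq, DESeq2 1.16.1 and featureCounts 1.5.1, and the build was GRCh38. Not given in the sources used here are the model formula, the cell line of each table, the low-count filter and whether counting used the strand. Rather than counts, 4 comparison tables of the authors were used. Per the file headers, the deposited signal is baseMean, read as a mean over all libraries of counts scaled by size factors, and lfcSE is the standard error of the log2 change. The deposited score is the Wald statistic, and the deposited p-value and adjusted value are the authors' DESeq2 test.

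With Python 3.11.15, pandas 2.3.3, numpy 2.4.6 and scipy 1.17.1, log2 changes were computed as statistic times standard error. Group variances were worked out from the 4 standard errors of a gene, and a variance was negative for 1 gene. The difference between contrasts was tested by a two-sided Wald test with Benjamini-Hochberg adjustment over 29639 genes, and was tested on simulated data. The test assumes that dasatinib against DMSO comes from the same fit as the other tables. For the other 3 tables, the change of the combination relative to SGI-110 followed from their changes relative to DMSO with a gap of at most 0.00152 log2. In 27 rows a date stands in place of a gene name, and these are named nowhere.

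The 52 gene lists were chosen with earlier results of these data known. Genes named were the 8 largest rises and falls (adjusted p under 0.05, mean count at least 100, standard error under 0.5), the 5 smallest p in each direction for the change and for the difference between contrasts (mean count at least 100), the 4 members with the smallest p in each list and every kinase that dasatinib binds. A few genes that this rule or the lists would name are not reported here. Other list members were chosen after their values were seen. Gene positions are from GENCODE on GRCh38 and promoter windows from RefSeq on GRCh38.p14, 250 bases before each gene start, matched by symbol. Alternatives covered the filter, threshold, size and scaling of the changes. Figures were drawn with matplotlib 3.10.9.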

Additional observations from a re-analysis of the deposited data

Results flagged for a closer look

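The dasatinib response differed with SGI-110 by a Wald test of the difference itself: it was higher in the combination against SGI-110 than in dasatinib against DMSO for 1804 genes and lower for 2517, at an adjusted p under 0.05. The 10 genes named next had the smallest p for this difference, 5 in each direction, among genes whose mean normalised count was 100 or more. The difference was -3.65 log2 for TXNIP, -2.90 for DMBT1, -1.94 for PECAM1, a surface protein of endothelial cells, -1.90 for the calcium pump gene ATP2B4 and -1.71 for COL1A1. It was 2.06 for COX10, 1.43 for HSPA5, 1.28 for DDIT3, 0.95 for the disulfide-forming oxidase gene QSOX2 and 0.88 for the splicing factor gene SRSF6. COL1A1 rose by 4.50 with SGI-110 against DMSO, stood at -0.29 with dasatinib and fell to -2.00 in the combination against SGI-110, from the authors' deposited table. Whether the DMSO cultures or the presence of SGI-110 set these differences cannot be told apart.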

How the results depend on the processing

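The counts of genes higher and lower stayed within 1.5 times the reported ones without the low-count filter, at a mean count of at least 50, at an adjusted p under 0.01, after centring, and with only genes measured in both groups, the last chosen after seeing the data. Asking for size moved them: 1161 genes were higher and 1384 lower with a change of at least 0.5 log2, and 329 were higher and 308 lower in a test against a change of at most 0.5 log2. The 4321 genes with a called difference between contrasts ranged from 3084 to 4695 over 4 alternatives. Centring ended the call of 4 of 235 named genes (COL1A2, HSP90AB1, HSPA4 and MT-ND5) and added RUNX2, and reversed no called gene. At an adjusted p under 0.01, 15 of 116 list counts moved by more than 1.5 times, among them ribosomal protein genes lower (11). At a mean count of at least 50, 2 of 56 list medians moved by more than the median standard error of their members, that of PAX3-FOXO1 genes to 0.44 and that of endothelial markers to -0.24. Within that error, the median of neural markers went to 0.87 and that of interferon-stimulated genes to -0.23. No paired analysis was possible because the tables hold no values per library; leaving out each replicate and a fit with a replicate block were not run for the same reason. Depth is unknown, and genes with a mean count under 10 could seldom be called.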

Other observations

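Gene families described here were chosen after their values were seen and are descriptions only. Host genes of small nucleolar RNAs fell in 11 of 22 members and rose in 1, with a median of -0.34, and on SGI-110 3 fell and 1 rose, from the authors' deposited table. GAS5, the most studied of them, stood at -1.05 ± 0.05 with dasatinib alone and -0.22 ± 0.05 in the combination against SGI-110, from the authors' deposited table. Many such host genes, like those of ribosomal proteins, start transcription in a run of pyrimidines.

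Of the tubulin genes 10 of 17 rose and none fell, with TUBA1A at 0.82 and TUBB4B at 0.66 in the authors' deposited table. On SGI-110 1 tubulin gene was higher and 9 lower, and the response was called below that of dasatinib alone for 9, from the authors' deposited table. Tubulin genes have many near-identical copies, so reads may be split between them. Of the kinesin motor genes 18 of 36 rose and 3 fell, and on SGI-110 9 rose and 7 fell, from the authors' deposited table. Proteasome subunit genes rose in 17 of 38 members with 2 lower, and on SGI-110 in 22 with 2 lower, from the authors' deposited table. Of the nuclear genes of respiratory complex I 21 of 38 rose and 2 fell, and on SGI-110 11 rose and 1 fell, from the authors' deposited table. For comparison, 17.8% of all genes tested were higher and 13.2% lower with dasatinib alone, and 14.2% higher and 17% lower on SGI-110.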
